A study of Sus scrofa with 10 samples.

Results

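Claudins, connexins, pannexins, occludin, the MARVEL proteins, the TJP scaffolds of tight junctions and the catenins of the adherens junction were described in pig hypothalamus. Gene rows were chosen by name in the deposited expression table: every row named as a member of these families with an estimate in both groups, except CLDN11. This gave 51 rows for 48 gene symbols out of 25009 rows in all. The study set 5 pigs of high growth and fatness (the high-growth pigs below) against 5 of low growth and fatness (the low-growth pigs). All 10 animals came from a backcross of Iberian and Landrace pigs, and the labels give no age, treatment or housing for either group. The table holds 1 value for each gene row and group, in FPKM (fragments scaled for transcript length and library size), with a lower and an upper bound, printed in parentheses below. It gives no spread between animals, so no test of a difference was possible, and a difference is given as a size, together with whether the 2 deposited intervals overlapped.

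Tight junctions seal the space between neighbouring cells. Claudins form the seal and decide which ions pass. Occludin, MARVELD2 and MARVELD3 are further membrane proteins of the strand, and the TJP proteins tie the strand to the actin skeleton. Connexins build gap junctions, channels that join the cytoplasm of neighbouring cells, and pannexins form related channels that open to the outside. Catenins hold cadherins, the adhesion proteins of the adherens junction, to actin. In brain these families have known homes: endothelial tight junctions make the blood-brain barrier, gap junctions couple astrocytes to each other and to oligodendrocytes, and some neurons are coupled by electrical synapses. In the hypothalamus the cells lining the third ventricle carry tight junctions where the barrier of the vessels is open.

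Of the 51 rows, 25 rows for 23 symbols averaged 1 FPKM or more across the groups, and these are compared below. In all 25 rows the intervals of the 2 groups overlapped. Over all 15281 rows at this level 0.458% had intervals apart (0.432% with the lower and 0.0262% with the higher value in the high-growth pigs). A size of 1.5-fold on FPKM + 1 was passed by 1 row, GJB1, which had the lower value in the high-growth pigs. Over all rows 6.33% passed that size, 4.49% with the lower value in the high-growth pigs and 1.85% with the higher one. In the high-growth pigs 18 of the 25 rows had the lower value and 7 the higher one. That is 72% of the 25 rows, and 67.7% of all rows were lower in the high-growth pigs. The median difference in log2(FPKM + 1), high minus low, was -0.19 for the 25 rows and -0.10 over all rows. After median-of-ratios scaling the 18 and 7 rows became 16 and 9, beside 51% of all rows lower, and the median over all rows moved by 0.093. After quantile normalization they were also 16 and 9, beside 50.5% of all rows lower, and the median over all rows moved by 0.096. Differences below are on this log2(FPKM + 1) scale, which understates the change of low genes.

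Levels of the 25 rows ran from 1.18 to 233 FPKM in the high-growth pigs and from 0.895 to 283 FPKM in the low-growth pigs. GJA1 and CTNNB1 stood at the top in both groups, followed by CTNND2. In each group only 1 of the 24 steps from one row to the next had intervals that did not overlap, the step from CTNNB1 down to CTNND2. The order was nearly the same in the 2 groups: no row moved by more than 3 places, and 8 kept their place. MARVELD1 was the only one of the 25 with a group value under 1 FPKM, so it passed the filter through the group where it was higher.

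**Figure D1:**
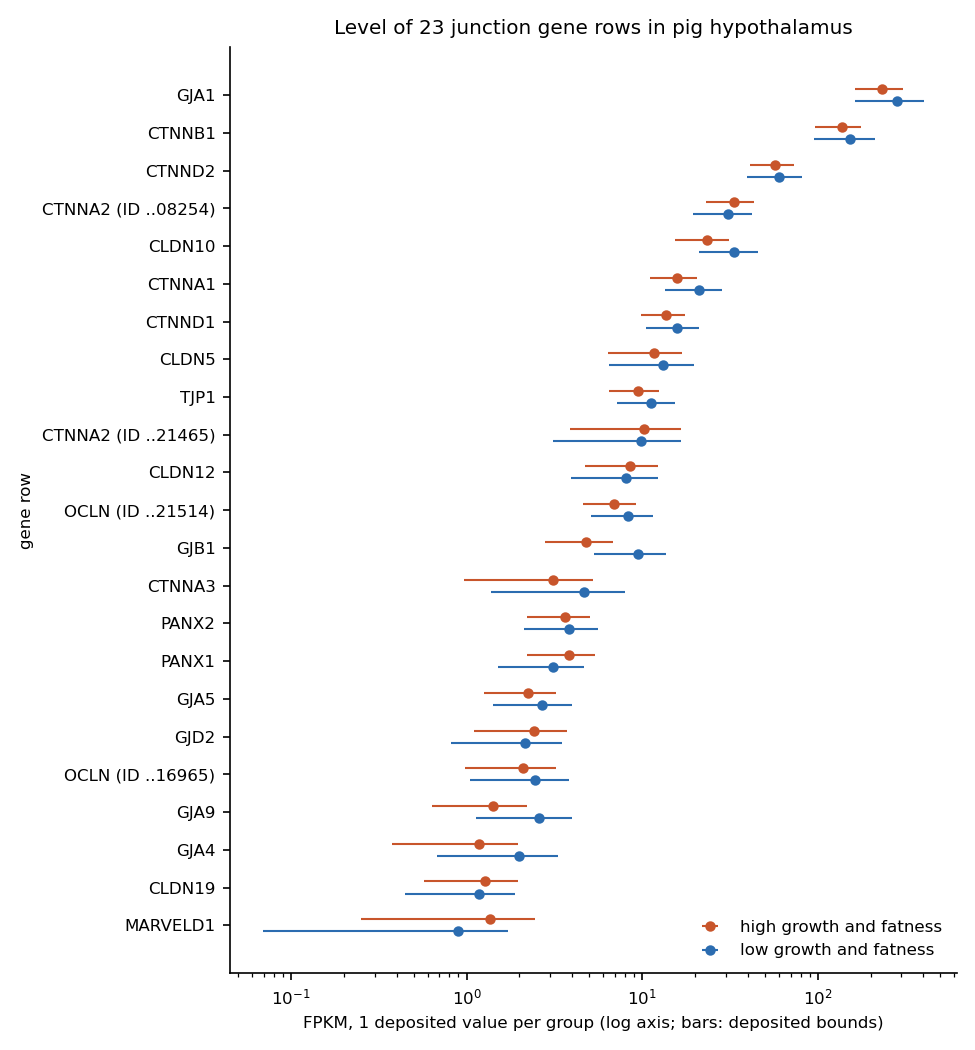
FPKM of 23 of the 25 junction gene rows averaging 1 FPKM or more, on a log axis, with the high-growth pigs in orange and the low-growth pigs in blue. Points are the deposited group values and bars the deposited bounds; in each row the 2 bars overlap, and GJA1 and CTNNB1 lie at the top.

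Apart from CLDN11, the claudins of the hypothalamus came down to a few genes. Among the 20 claudin rows, 4 reached a mean of 1 FPKM: CLDN10, CLDN5, CLDN12 and CLDN19. CLDN10, which forms paracellular ion channels in kidney epithelium and is transcribed in astrocytes, was at 23.4 FPKM (15.5 to 31.2) in the high-growth pigs and 33.4 FPKM (21.0 to 45.8) in the low-growth pigs, a difference of -0.50. It made up 49.6% of the summed claudin FPKM in the high-growth pigs and 56.6% in the low-growth pigs, CLDN11 not counted. CLDN11 itself was far above CLDN10, at 153 FPKM (108 to 198) in the high-growth pigs and 317 FPKM (176 to 459) in the low-growth pigs. These shares therefore do not hold for all claudins. The 2 intervals of CLDN10 overlapped, and the bounds allow a low-to-high ratio anywhere from 0.672 to 2.96. The CLDN10 row (ENSSSCG00000009500) lies on chromosome 11 from 71983268 to 72006790 in build Sscrofa10.2, the build of all coordinates here.

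CLDN5, the main claudin of brain endothelium and of the blood-brain barrier, was at 11.7 FPKM (6.43 to 16.9) in the high-growth pigs and 13.1 FPKM (6.51 to 19.7) in the low-growth pigs. Its difference of -0.16 lay close to the median of all rows. The CLDN5 row (ENSSSCG00000010123) lies on chromosome 14 from 54778678 to 54779334. Among the endothelial markers, 9 of 12 were matched to a row, and all 9 had the lower value in the high-growth pigs, with a summed level of 68.8 FPKM against 83.4 FPKM, a median difference of -0.29 and none at 0. Intervals overlapped for all 9. Over all rows 67.7% were lower, with a median of -0.10. The summed FPKM of all rows with an estimate in both groups, in which the highest rows weigh most, had a low-to-high ratio of 1.21. The ratio of the endothelial sums was also 1.21. In bulk tissue, fewer cells of a type and less RNA per cell cannot be told apart, here and in what follows. CLDN12, a broadly expressed claudin, was at 8.48 FPKM in the high-growth pigs and 8.10 FPKM in the low-growth pigs. CLDN19, known from Schwann cells and kidney, was at 1.27 and 1.17 FPKM. The 4 claudins were thus split evenly in sign, 2 lower and 2 higher in the high-growth pigs, and the median of the 4 was -0.05, which turned to 0.03 after median-of-ratios scaling and to 0.02 after quantile normalization.

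The other 16 claudin rows were low in both groups. Among them are claudins best known from epithelia of the gut, kidney, skin and airways. CLDN1 was at 0.193 FPKM in the high-growth pigs and 0.259 FPKM in the low-growth pigs, CLDN4 at 0.182 and 0.307 FPKM. The row named CLDN3 was at 0.295 and 0.269 FPKM, but the reference table of identifiers gives the same row as CLDN9, so its identity is uncertain. CLDN7 has 2 rows, on chromosomes 12 and 3, with nearly equal values (0.114 and 0.102 FPKM in the high-growth pigs, 0.208 and 0.185 FPKM in the low-growth pigs). Reads of 1 gene may be split between them, so both values are uncertain. CLDN8, a claudin of the distal nephron, was at 0.0445 FPKM (0 to 0.145) in the high-growth pigs and 0.551 FPKM (0 to 1.22) in the low-growth pigs, and both intervals reach down to 0. CLDN15, an intestinal claudin whose row lies on an unplaced scaffold, was at 0.638 and 0.502 FPKM. CLDN20 was at 0.410 and 0.714 FPKM, and its row overlaps those of TIAM2 and TFB1M. CLDN25 was listed at 0 in both groups.

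Markers of epithelium moved with the group beside these low claudins. Of 6 epithelial markers 5 were matched to a row and 4 reached the filter, all 4 with the lower value in the high-growth pigs, with none at 0. KRT19 had 1.25 FPKM (0.450 to 2.04) there and 6.71 FPKM (2.88 to 10.5) in the low-growth pigs, and KRT8 had 2.18 FPKM (1.04 to 3.32) and 8.55 FPKM (4.02 to 13.1). Both pairs of intervals were apart. The summed level of all 5 matched epithelial rows was 6.78 FPKM in the high-growth pigs and 21.4 FPKM in the low-growth pigs. Markers of the choroid plexus, the epithelium that makes cerebrospinal fluid, were lower in 6 of 8 rows at the filter, for 8 of 9 genes matched, with a summed level of 324 FPKM against 482 FPKM and none at 0. Of the lower rows 3 were past 1.5-fold, TTR, KCNJ13 and OTX2, and TTR alone held 268 and 407 FPKM of the sums. Another choroid plexus marker, PRLR, the prolactin receptor, went past 1.5-fold the other way, at 1.95 and 0.912 FPKM. Markers of ependyma, the ciliated lining of the ventricles, were higher in the high-growth pigs in 3 of 4 rows at the filter, for 5 of 7 genes matched, with a median difference of 0.17, a summed level of 14.4 FPKM against 12.0 FPKM and none at 0. CCDC39, a gene of motile cilia, was past 1.5-fold among them, at 2.33 and 1.15 FPKM, with overlapping intervals. RSPH1 was at 6.74 and 5.09 FPKM, with a low-group interval reaching 0, and TEKT1 was nearly equal at 1.45 and 1.45 FPKM. FOXJ1 was lower in the high-growth pigs, at 2.91 and 3.43 FPKM. Markers of the anterior pituitary, which lies below the hypothalamus, were lower in 4 of 4 rows at the filter, for 7 of 8 genes matched, with overlapping intervals. The summed level of the 7 matched rows was 302 FPKM against 639 FPKM, with none at 0. PRL, prolactin, alone held 279 and 570 FPKM of these sums, with a low-group interval from 102 to 1039 FPKM. The part of these cells in the claudin values was not tested.

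Occludin, the tetraspan protein of tight junction strands, has 2 rows. The OCLN row on chromosome 16 (ENSSSCG00000021514) was at 6.90 FPKM in the high-growth pigs and 8.36 FPKM in the low-growth pigs, and the one on the unplaced scaffold GL892520.2 (ENSSSCG00000016965) at 2.11 and 2.45 FPKM. Both differed the same way, by -0.25 and -0.15, with overlapping intervals. MARVELD2, or tricellulin, the protein of the corners where cells of an epithelium meet, has its named row on the same scaffold, 32482 bases from OCLN, at 0.395 and 0.492 FPKM. The reference table gives the name MARVELD2 to another row that carries no name in the file. It lies on chromosome 16, 123525 bases from the OCLN row there, at 1.40 FPKM in the high-growth pigs and 1.28 FPKM in the low-growth pigs. The pair thus appears at both places in this assembly, and the values of both genes are uncertain where reads could be split. The MARVELD1 row was taken in by its name, not as a known protein of the strand. It was at 1.35 FPKM in the high-growth pigs and 0.895 FPKM in the low-growth pigs. Its difference of 0.31 was the most positive of the 25. Its intervals were also the widest, with half-widths of 81.5% and 92.2% of the value. MARVELD3 was at 0.125 and 0.0447 FPKM.

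Of the scaffolds, TJP1, which is found at nearly all tight junctions, was at 9.46 FPKM (6.48 to 12.4) in the high-growth pigs and 11.3 FPKM (7.16 to 15.3) in the low-growth pigs, a difference of -0.23 with overlapping intervals. The TJP1 row (ENSSSCG00000030470) lies on chromosome 1 from 161175468 to 161283814. TJP3, an epithelial scaffold, was at 0.0921 and 0.158 FPKM.

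Most connexins had lower values in the high-growth pigs. Of 7 connexins at a mean of at least 1 FPKM, 6 were lower there, also after both scalings. Over all rows 67.7% were lower as deposited, 51% after median-of-ratios scaling and 50.5% after quantile normalization. Their median difference was -0.46, against -0.10 over all rows, and became -0.37 after median-of-ratios scaling and -0.42 after quantile normalization. All 7 pairs of intervals overlapped. GJA1, the main connexin of astrocytes, made up 93.5% of the summed connexin FPKM in the high-growth pigs and 91.9% in the low-growth pigs. It was at 233 FPKM (162 to 304) in the high-growth pigs and 283 FPKM (163 to 403) in the low-growth pigs, a difference of -0.28. The low group's interval contains nearly all of the high-growth pigs'. The GJA1 row (ENSSSCG00000004241) lies on chromosome 1 from 45543878 to 45557193. Beside it, 8 of 10 astrocyte markers were matched to a row and 7 had an estimate in both groups. GFAP had no estimate. Of the 7, 6 had the lower value in the high-growth pigs, with a summed level of 2946 FPKM against 3701 FPKM, a median difference of -0.33 and overlapping intervals throughout. The low-to-high ratio was 1.21 for GJA1, 1.26 for the summed markers and 1.21 for the sum of all rows. In the sum of all rows the highest rows weigh most, and the median difference over all rows was -0.10.

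A connexin of myelinating cells had the most negative difference of the 25 rows. GJB1, which forms gap junctions in oligodendrocytes and Schwann cells, was at 4.82 FPKM (2.78 to 6.85) in the high-growth pigs and 9.53 FPKM (5.36 to 13.7) in the low-growth pigs. This is a low-to-high ratio of 1.98 and a difference of -0.86, past 1.5-fold under both scalings and both other pseudocounts. The intervals still shared the range from 5.36 to 6.85 FPKM, and the bounds allow ratios from 0.781 to 4.92. The GJB1 row (ENSSSCG00000012394) lies on chromosome X from 64844637 to 64852021. GJC3, also known from oligodendrocytes, is named only by the reference table and was at 0.243 and 0.207 FPKM.

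Myelin markers moved the same way as GJB1. All 11 oligodendrocyte markers were matched to a row, and 11 rows with an estimate in both groups had the lower value in the high-growth pigs, 9 of them past 1.5-fold, with none at 0. Among these markers is CLDN11, the claudin of myelin. MOG has 2 rows, and 1 row without an estimate in both groups was left out. The summed level of the 11 rows was 3161 FPKM in the high-growth pigs and 4920 FPKM in the low-growth pigs, a ratio of 1.56. MBP alone held 2017 and 2904 FPKM of these sums. The ratio of GJB1 was 1.98. The GJB1 difference of -0.86 lay within the range of the 11 rows, from -1.04 (CLDN11) to -0.53 (MBP). The median difference of the myelin rows was -0.71, with overlapping intervals throughout. The part of oligodendrocyte content in the GJB1 values was not tested.

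Connexins of the vessel wall were lower in the high-growth pigs too. GJA4, a connexin of arterial endothelium, was at 1.18 FPKM (0.378 to 1.97) in the high-growth pigs and 2.0 FPKM (0.683 to 3.31) in the low-growth pigs. Its row lies on an unplaced scaffold. GJA5, also of arterial endothelium, was at 2.23 and 2.69 FPKM. The 2 differences were -0.46 and -0.19, and the endothelial median of -0.29 lies between them. Markers of mural cells, the smooth muscle and pericytes around the vessels, were all lower in the high-growth pigs, 7 of 7, with a summed level of 65.0 FPKM against 119 FPKM, none at 0 and 2 pairs of intervals apart. Their sizes were uneven: ACTA2, TAGLN and MYH11 differed by -1.55, -1.17 and -0.98, and RGS5 by -0.40. KCNJ8, CSPG4 and PDGFRB differed by -0.19, -0.12 and -0.05, against a median of -0.10 over all rows. Fibroblast and meningeal markers were lower in the high-growth pigs too, 13 of 13 rows for 11 of 12 genes, with summed levels of 74.8 and 229 FPKM, none at 0, and 8 pairs of intervals that did not overlap. The part of these cells in the connexin values was not tested.

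GJD2, the connexin of neuronal electrical synapses, was the only one of the 7 connexins above the filter with the higher value in the high-growth pigs. It was at 2.42 FPKM in the high-growth pigs and 2.16 FPKM in the low-growth pigs, a difference of 0.12 with overlapping intervals. Of 10 neuronal markers 7 were matched to a row, and 6 of the 7 were lower in the high-growth pigs, with a median difference of -0.14 and overlapping intervals. Their summed level was 1280 against 1370.2 FPKM, and none was at 0. The median difference over all rows was -0.10. The low-to-high ratio of the neuronal sums was 1.07, against 1.21 for the sum of all rows, in which the highest rows weigh most. All 10 marker genes of hypothalamic neurons had values above 0 in both groups, and 8 of their 11 rows were higher in the high-growth pigs. Both rows of GHRH are among the 8. NPY, POMC and AGRP were lower there, by -0.64, -0.39 and -0.17. Past 1.5-fold were 4 higher rows and 1 lower row, NPY, and intervals overlapped throughout. Over all rows 67.7% were lower. GJA9 was at 1.42 FPKM (0.638 to 2.21) in the high-growth pigs and 2.57 FPKM (1.14 to 4.0) in the low-growth pigs. Its difference of -0.56 was just short of 1.5-fold, which it passed with the smaller pseudocounts. GJC1, a connexin of smooth muscle and neurons, was under the filter at 0.719 and 0.988 FPKM. GJA10, known from the retina, was at 0.150 and 0.128 FPKM, and GJB5, GJB7 and GJD4 lay between 0.171 and 0.408 FPKM in both groups. GJD3 was listed at 0 in both groups. GJB2 and GJB6, also astrocyte connexins, were not analysed here.

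**Figure D2:**
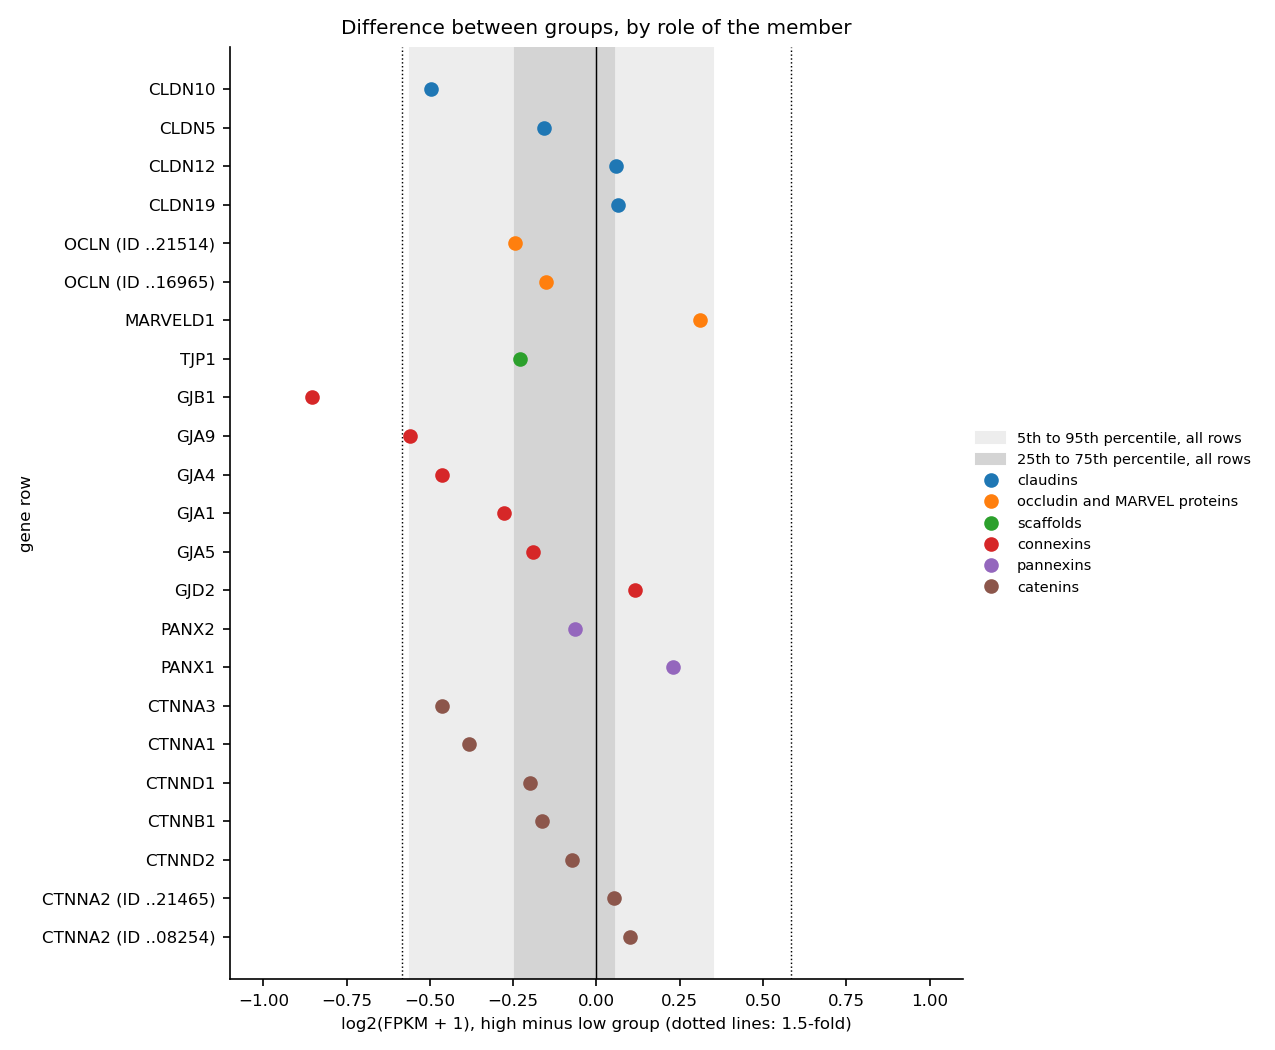
Difference between the groups for 23 of the 25 rows, as log2(FPKM + 1) of the high-growth pigs minus the low-growth pigs, coloured by family; dotted lines mark 1.5-fold, and grey bands hold the middle 50% and 90% of all 15281 rows. GJB1 is the only row past 1.5-fold.

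Against the spread of all rows, most of the 25 lay inside the middle 90%, and under 50% of them inside the middle 50%. The middle 90% of all rows lay between -0.56 and 0.35, with 2 of the 25 below it, GJB1 among them, and 0 above it. The middle 50% lay between -0.25 and 0.05 and held 9 of the 25. An absolute difference under 0.3 was found for 16 of the 25. The share of all rows under that size is not given here, so this count does not set the members apart.

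**Figure D3:**
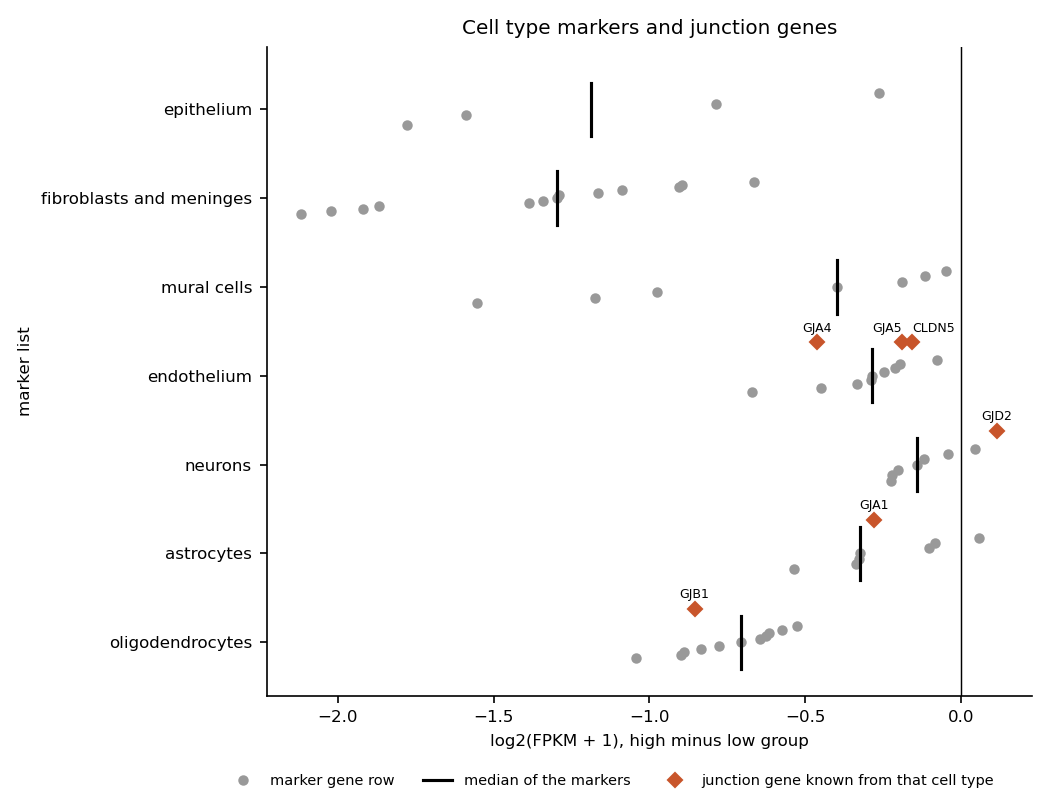
Difference in log2(FPKM + 1), high minus low, for marker rows of 7 cell types (grey points, 1 per gene row; the black bar is their median) and for junction genes known from the same cells (orange diamonds, named). GJB1 lies to the left of the oligodendrocyte median of -0.71, GJA1 lies near the astrocyte median of -0.33, and GJD2 lies to the right of 0.

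Pannexins had small differences of both signs. PANX1, a channel that releases ATP, was at 3.81 FPKM in the high-growth pigs and 3.11 FPKM in the low-growth pigs, a difference of 0.23. PANX2, the pannexin best known from brain, was at 3.64 and 3.85 FPKM, a difference of -0.06 that turned to 0.02 after median-of-ratios scaling. PANX3, of bone and cartilage, was at 0.00531 and 0.0177 FPKM.

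Catenins were the only family with every row above the filter. All 7 rows, for 6 genes, had overlapping intervals, and none reached 1.5-fold. CTNNB1, beta-catenin, which serves both the adherens junction and WNT signalling, was at 137 FPKM (96.7 to 177) in the high-growth pigs and 153 FPKM (94.8 to 211) in the low-growth pigs. Its difference of -0.16 turned to 0.04 after quantile normalization. It made up 50.5% of the summed catenin FPKM in the high-growth pigs and 51.7% in the low-growth pigs. CTNND2, the delta-catenin of neurons and their dendrites, was at 57.5 FPKM (41.4 to 73.6) and 60.5 FPKM (39.8 to 81.2). Its difference of -0.07 turned positive under both scalings. CTNND1, which binds the cadherin tail near the membrane in most cell types, was lower by level than its neuronal relative in both groups, at 13.7 FPKM (9.85 to 17.5) and 15.9 FPKM (10.5 to 21.2), and its intervals lay below those of CTNND2.

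The alpha-catenins link beta-catenin to actin, and their 3 genes differ in where they are used. CTNNA1, the epithelial and general form, was at 15.9 FPKM (11.1 to 20.7) in the high-growth pigs and 21.0 FPKM (13.5 to 28.6) in the low-growth pigs, a difference of -0.38. Its row overlaps that of LRRTM2. CTNNA2, the neuronal form, was among the few rows with the higher value in the high-growth pigs. Its 2 named rows on chromosome 3 were at 33.3 FPKM (23.0 to 43.7) and 10.3 FPKM (3.88 to 16.7) in the high-growth pigs, and at 31.0 FPKM (19.5 to 42.5) and 9.89 FPKM (3.11 to 16.7) in the low-growth pigs. The differences were 0.10 and 0.05. The reference table gives the name CTNNA2 to another row there, from 66285673 to 66567740, at 56.4 FPKM (40.7 to 72.1) and 61.7 FPKM (40.6 to 82.8), with a difference of -0.13. The gene is thus cut into pieces in this annotation, its level is uncertain, and as deposited the pieces did not share a sign. CTNNA3, the form of heart and testis, was at 3.12 FPKM in the high-growth pigs and 4.69 FPKM in the low-growth pigs, a difference of -0.46 with the widest intervals of the catenins (half-widths of 69.2% and 70.6%). Under quantile normalization 3 catenin rows were lower and 4 higher in the high-growth pigs, against 5 and 2 as deposited.

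Other genes linked to the same junctions had differences of both signs. Most were scaffold, polarity, adhesion and plaque proteins, and a few were not: CTNNBL1, with 2 rows, a nuclear protein tied to splicing, CTNNBIP1, an inhibitor of beta-catenin signalling, and CSDA, a Y-box DNA-binding protein. All were listed without regard to their values here, although results of these data were known. Of 39 rows, 37 reached the filter, 22 with the lower and 15 with the higher value in the high-growth pigs, and their median difference was -0.07, against -0.10 over all rows. JAM3, a junctional adhesion molecule, was past 1.5-fold, at 22.3 FPKM (14.5 to 30.0) in the high-growth pigs and 37.6 FPKM (23.3 to 51.9) in the low-growth pigs. The intervals overlapped in all 37 rows. The 3 genes of highest mean were PRKCZ, an atypical protein kinase C of cell polarity, at 68.9 FPKM in the high-growth pigs and 77.2 FPKM in the low-growth pigs, PKP4, a plakophilin, at 55.2 and 66.1 FPKM, and JAM3.

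The deposited intervals limit what these values can show. For the 25 rows the median half-width was 42.2% of the value in the high-growth pigs and 47.7% in the low-growth pigs, against 39.3% and 45.1% over all rows. The wider relative interval was in the low-growth pigs for 24 of the 25 rows, and for 95.4% of all rows. GJA4 was the exception, at 67.8% in the high-growth pigs and 65.8% in the low-growth pigs. Widths of the 25 rows ran from 28.1% to 81.5% in the high-growth pigs and from 33.8% to 92.2% in the low-growth pigs. The narrowest were those of CTNND1. Many claudins and connexins are also short rows: 9 of 20 claudin rows and 9 of 13 connexin rows span under 2000 bases, against 23% of all rows. In 16 of the 17 member rows that span under 1500 bases, the span is a multiple of 3, as for a model of the coding sequence alone.

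**Figure D4:**
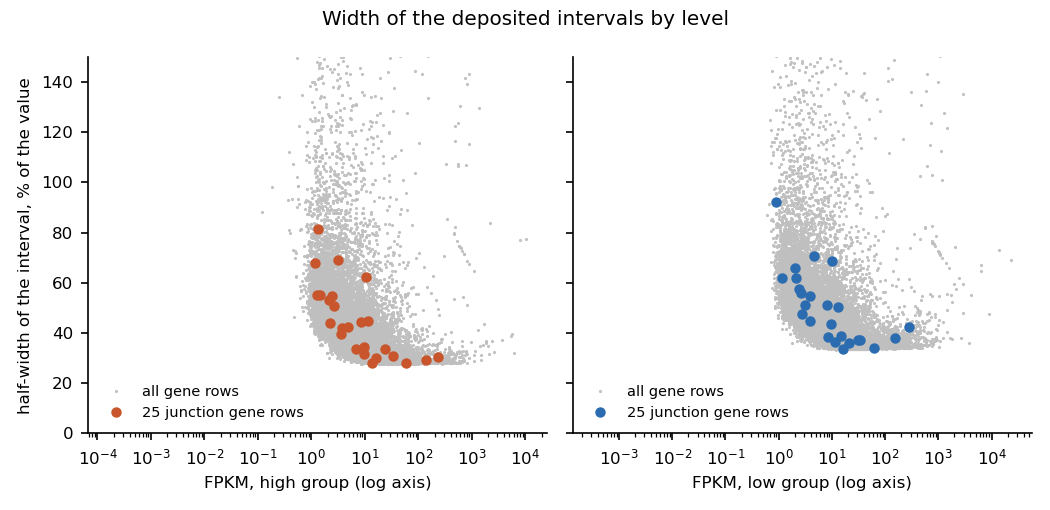
Half-width of the deposited interval, as a percent of the value, against the level in FPKM on a log axis. Grey points are all gene rows averaging 1 FPKM or more and above 0 in both groups, and coloured points are the 25 junction gene rows. The high-growth pigs are on the left and the low-growth pigs on the right. The axis ends at 150%, which leaves 433 of 15156 rows out of view on the left and 500 on the right; the coloured points lie among the grey ones, and widths grow as levels fall.

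In all, 26 of the 51 rows were under 1 FPKM on average, with group values of at most 0.988 FPKM and none with intervals apart. Of these, 20 had a lower bound of 0 in both groups, 2 were listed at 0 in both groups, CLDN25 and GJD3, and 4 were listed at 0 in 1 group. Among the 26, a value of 0.5 FPKM or more in either group was found for CLDN8, CLDN15, CLDN20 and GJC1.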

How the data were processed

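Hypothalamic RNA of 10 pigs was sequenced as paired-end libraries, per the labels' protocols. The authors deposited FPKM values with lower and upper bounds, 1 per gene row and group of 5 animals, per the file headers. The sources used here do not state the confidence level of these bounds. The submitters' processing notes name TopHat2 2.0.5, Cufflinks 2.0.2 and build Sscrofa10.2. Values per animal and read counts were not used here, so sample depth is unknown.

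Rows with status OK in both groups were kept (24951 of 25009), and those averaging 1 FPKM or more were compared (15281) as log2(FPKM + 1), high minus low. No test was run. A row was counted where the 2 intervals did not overlap, or where FPKM + 1 differed by at least 1.5-fold. Starts in the file count from 0 (spans are multiples of 3 in 54.1% of 5098 short rows, and 26.1% with 1 base added) and are printed from 1. The fold call was checked on simulated data with planted changes and no noise, and the overlap call on a few made-up rows. This checks the code only and says nothing about noise in these data.

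The members and lists were chosen with earlier results of these data known. Any member could be named, but 2 member genes enter the counts and sums and are not reported here by name or value. Bounds are given at a mean of at least 10 FPKM or past 1.5-fold, and for some others, chosen after their values were seen. Other junction genes were named if past 1.5-fold or among the 3 highest. Markers were named after their values were seen. Alternatives were pseudocounts of 0.5 and 0.1, no filter, a mean of at least 5 FPKM, median-of-ratios scaling, quantile normalization, 2-fold and narrower bounds. The setting without a filter still left out rows at 0 in either group. Python 3.11.15 and pandas 2.3.3 were used.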

Additional observations from a re-analysis of the deposited data

How the results depend on the processing

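The count of rows whose intervals did not overlap was 0 under each alternative run, also with bounds drawn in to 0.8 of their half-width. The share over all rows was 0.356% without a filter and 0.489% at means of 5 FPKM or more. It was 0.36% after median-of-ratios scaling and 2.08% with the narrower bounds. At such shares a count of 0 among so few rows does not set the members apart. Rows past 1.5-fold numbered 1 as reported, 3 with a pseudocount of 0.5 (GJB1 and GJA9 among them), 4 with 0.1 (GJA4 added) and 0 at 2-fold, where the shares of all rows were 6.33%, 7.74%, 9.42% and 2.56%. All of them had the lower value in the high-growth pigs. Rows lower in the high-growth pigs numbered 18 of 25, beside 67.7% of all rows. They numbered 31 of 45 without a filter, beside 64.2%, and 11 of 14 with means of 5 FPKM or more, beside 74%. The set of rows differs there by construction, and rows at 0 in either group were left out also without a filter. The median difference of -0.19 became -0.082 after quantile normalization, -0.096 after median-of-ratios scaling and -0.098 without a filter. With 1 row per symbol, chosen after seeing the data, 17 of 23 rows were lower. Of 25 rows, 19 kept their sign and side of 1.5-fold under 4 settings, and 3 changed sign: PANX2 to 0.023 and CTNND2 to 0.035 after median-of-ratios scaling, and CTNNB1 to 0.035 and CTNND2 to 0.10 after quantile normalization. The cause was not tested. No paired analysis was possible because each group has a single deposited value, and no animal could be left out either. Depth is unknown, so what it limits was not measured.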
